A study of Mus musculus with 2 samples.

Results

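Peritoneal macrophages of wild type mice differed from one another in their transcripts of the lipid chaperones Fabp4 and Fabp5. The cells described here are the 20% of wild type large macrophages richest in UMIs (unique molecular identifiers, each counting 1 captured transcript) of 5 genes: Fabp4, Fabp5, Ptgis, Ckb and Cd9. They were chosen by that measured score. Of 6315 wild type barcodes, 6259 had at least 500 genes and at most 10% mitochondrial UMIs. From these, 4821 cells (77.0%) were selected on at least 5 UMIs of Prg4 and fewer than 5 UMIs per 10000 of H2-Aa, H2-Ab1, H2-Eb1 and Cd74 together. The 964 cells in the top 20% of the summed score are called high cells, and the 964 cells in the bottom 20% low cells.

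Fatty acid binding proteins are small cytosolic proteins that carry long-chain fatty acids and related lipids between membranes, enzymes and nuclear receptors. Fabp4, the adipocyte form, and Fabp5, the epidermal form, are both made by macrophages, and Fabp4 is a classic target of the lipid-activated receptor PPARG. Resident peritoneal macrophages are mostly large macrophages, which depend on the transcription factor Gata6 and carry little class II antigen presentation machinery. A smaller population, rich in class II, is replenished from blood monocytes.

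The study had 2 libraries, each of F4/80+ cells sorted from peritoneal lavage and captured with 10x Genomics 3' chemistry. One came from Ankrd22-/- mice made with CRISPR/Cas9 and the other from Ankrd22+/+ mice. F4/80 is the macrophage surface antigen encoded by Adgre1, and Ankrd22 encodes an ankyrin repeat protein. Age, sex, genetic background and the number of mice per library are not in the labels used here. The comparison described below lies within the wild type library, and the knockout library was read by the same rule as a second library.

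The knockout library held 110956482 UMIs in 6706 barcodes and the wild type library 96869041 UMIs in 6315 barcodes, where 8000 cells had been expected per capture. Ankrd22 had 0 UMIs in either library, which allows up to 0.0270 CPM (counts per 1000000 UMIs) in knockout and 0.0310 CPM in wild type cells, so its counts do not check the genotype labels. The libraries shared 15 barcodes, 2 of them high cells. Cells of 1 library are not replicates, so there is no test: CPM were taken from UMIs summed over the cells of each end, and a log2 ratio is high over low with 1 CPM added to both. Intervals (exact, 95%) of ratios and levels cover counting error only. Those of a ratio are without the added 1 CPM, so for scarce genes they sit off-centre. Intervals of a share of cells are binomial intervals over the cells of 1 library, so they do not cover replicate error.

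The limits of the high and low cells are set by rank. The lowest score among the high cells was 59.80 per 10000 and the next cell outside had 59.78, while the highest score among the low cells was 27.78 and the next cell outside had 27.80. Within 5 per 10000 of a limit lay 561 cells at the high one and 844 at the low one. High cells are a range of a score, and whether they form a type of their own was not tested. Their median score was 72.1 per 10000, against 21.1 in low cells.

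**Figure D1:**
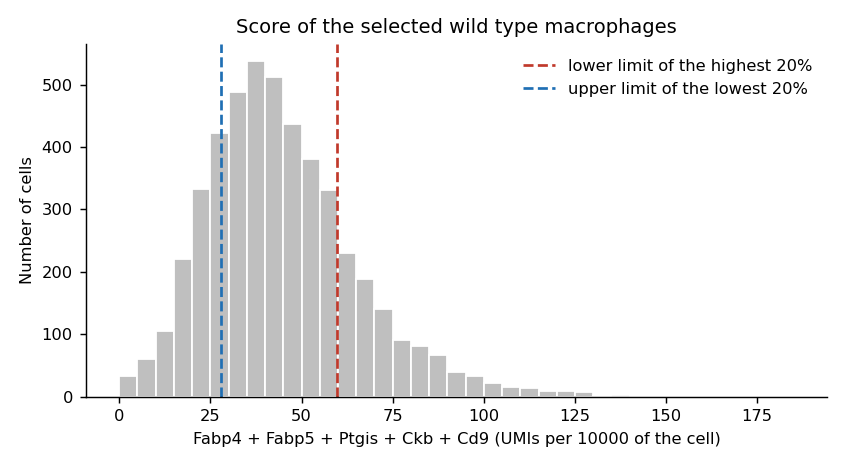
Number of selected wild type cells (y axis) by summed Fabp4, Fabp5, Ptgis, Ckb and Cd9 UMIs per 10000 (x axis, bins of 5). Dashed lines mark the limits of the highest and lowest 20%; the distribution has 1 peak and a tail towards high scores, up to 181.

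Of the 5 score genes, Fabp4 and Fabp5 set most of the ranking. Fabp4 (chromosome 3, 10204088 to 10208576, GRCm38) had 3807 CPM in high cells and 704 CPM in low cells. Fabp5 (chromosome 3, 10012548 to 10016607) had 1616 CPM in high cells and 262 CPM in low cells. The 2 genes lie close together, and they gave 71.8% of the score UMIs of high cells, against 48.01% in low cells. Ptgis, the prostacyclin synthase, had 683 CPM in high and 278 CPM in low cells, and the tetraspanin Cd9, an organiser of membrane protein complexes, had 1161 and 575 CPM. Ckb, the brain-type creatine kinase, differed least, with 285 CPM in high and 194 CPM in low cells. These differences follow from the choice of cells and are a description.

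A value that the ranking did not use comes from leaving each score gene out in turn and ranking the cells by the other 4. Fabp5 then had 1175 CPM in the top 20% and 447 CPM in the bottom 20% of cells, a log2 ratio of 1.39 (1.35 to 1.44). For Fabp4 the ratio was 1.10 (1.08 to 1.13), with 2823 CPM in the top 20% and 1316 CPM in the bottom 20%. Each lipid chaperone was higher where the other 4 genes were high. The 5 genes had been chosen together with earlier results of these data known, so these ratios are a description and not a test. Ptgis followed with 0.59 (0.54 to 0.64), Cd9 with 0.43 (0.39 to 0.46) and Ckb with 0.26 (0.19 to 0.33). All 5 ratios stayed above 0 when cells were ranked within 5 bins of depth, where they ran between 0.24 for Ckb and 1.39 for Fabp5.

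**Figure D2:**
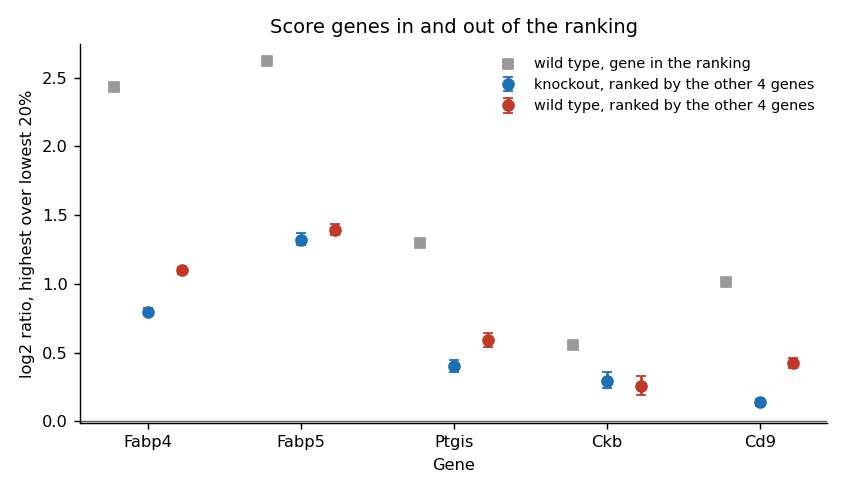
Log2 ratio of the highest over the lowest 20% of cells (y axis) for each score gene (x axis). Grey squares use the whole score in wild type cells, where the difference is built in; blue and red points rank knockout and wild type cells by the other 4 genes, with 95% counting intervals. Fabp5 (1.32 in knockout and 1.39 in wild type cells) and Fabp4 (0.80 and 1.10) keep the largest ratios in both libraries, and Cd9 is 0.14 in knockout but 0.43 in wild type cells.

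The score genes varied from cell to cell by more than counting alone gives. With every cell thinned to 5000 UMIs, the variance over cells was 5.10 times the mean for Fabp5 and 4.95 times for Fabp4, against 2.19 for Ptgis, 2.04 for Cd9 and 1.31 for Ckb, where counting alone gives 1; this ratio grows with the mean, so it does not rank genes of unequal level. After thinning, Fabp5 was seen in 95.7% of 911 high cells and in 57.1% of 889 low cells. Before thinning the shares were 98.7% of high and 78.6% of low cells. In 18 barcodes with B cell transcripts of the same library it was seen in 3 (16.7%). The source of those UMIs was not tested. Shallower cells left out were 53 high, 75 low and 15 B cell barcodes, and the median depth before thinning was 13285.5 UMIs in high cells, 14328.5 in low cells and 5395 in the B cell barcodes. Fabp4 had a UMI in 100% of the thinned high cells and in 88.3% of the low cells, against 33.3% of the B cell barcodes, so low cells had less Fabp4 rather than none.

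Both ends carried macrophage transcripts. Of 7 measured macrophage markers, 3 lay above and 4 below 0, with a median of -0.01. Adgre1 had 677 CPM in high and 667 CPM in low cells, and the macrophage lysozyme Lyz2 61520 CPM in high and 56691 CPM in low cells. Fcgr1 stood at 0.48, while Csf1r at -0.33, Mertk at -0.51 and Itgam at -0.20 were lower in high cells. Slpi, a secreted inhibitor of leukocyte proteases that belongs to the marker list but not to the score, had 38644 CPM in high and 26190 CPM in low cells, a log2 ratio of 0.56 (0.56 to 0.57). The median cell had 337 Slpi UMIs per 10000 at the high end (range 5.04 to 1879) and 162 at the low end (range 6.22 to 1349), so single cells of the 2 ends overlapped widely. Of 29 measured genes of large macrophage identity, Garnl3 alone was past 1.5-fold in favour of high cells and Arg1 alone in favour of low cells. Over all genes 0.291% were past it in favour of high cells and 4.58% in favour of low cells. Arg1 stood at -0.49 with trimmed-mean scaling and -0.36 without cells with a Lyve1, Folr2 or Mrc1 UMI (both described below), short of 1.5-fold. Garnl3 stood at 1.05 and 0.66 there. Gata6 had 161 CPM in high and 135 CPM in low cells, Icam2, an adhesion molecule, 773 and 593 CPM, and the phosphatidylserine receptor Timd4 150 and 177 CPM. The complement receptor Vsig4 had 339 CPM in high and 502 CPM in low cells, and the B cell chemokine Cxcl13 3326 and 4529 CPM. Prg4 and class II, on which both ends had been selected, were close, with medians of 64.7 and 63.3 Prg4 UMIs and of 0.734 and 0.738 class II UMIs per 10000 in high and low cells.

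Markers of other cell types were near 0 at both ends. Summed over each list, B cell markers had 2.32 CPM in high and 2.96 CPM in low cells, dendritic cell markers 6.13 and 11.8 CPM, adipocyte markers 1.87 and 0.704 CPM, and endothelial markers 2.69 and 2.60 CPM. The adipocyte genes Adipoq, Lep and Car3 and all 6 fibroblast markers had 0 UMIs in either end. Neutrophil markers summed to 88.0 CPM in high and 82.5 CPM in low cells, with S100a9, Retnlg and Ly6g at 0, which left Csf3r and S100a8. The doublet score had a median of 0.0886 at both ends.

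Few genes outside the score were higher in high cells. At a level of 20 CPM or more in whichever end was higher, 4803 genes were measured. Past 1.5-fold, 14 of them (0.291%) were higher and 220 (4.58%) lower in high cells. The choice of cells used this contrast, so nothing is read from these counts. The median gene lay at -0.12. Trimmed-mean scaling moved every ratio up by 0.16 and gave 47 genes higher and 83 lower, and median-of-ratios scaling moved them by 0.18 and gave 58 and 74. Every ratio quoted here is on the unshifted scale.

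The genes highest in high cells included several of innate defence. Pglyrp1, a secreted protein that binds bacterial peptidoglycan, had 70.3 CPM in high and 34.3 CPM in low cells, a log2 ratio of 1.01 (0.87 to 1.19). Its UMIs came from 456 high and 277 low cells, so many cells contributed. Serpinb1a, an inhibitor of neutrophil serine proteases, had 570 CPM in high and 339 CPM in low cells (0.75), and Prtn3, one of those proteases, had 404 and 275 CPM (0.55). Together with Slpi these are 3 genes of protease control, picked out as such after their values were seen. Of 11 measured antiprotease and secreted defence genes fixed as a list, 0 passed 1.5-fold upwards and 2 downwards in high cells. Over all genes 0.291% passed upwards and 4.58% downwards. The 2 were the acute phase protein Saa3 with 3871 CPM in high and 6665 CPM in low cells, and Serpinb6a with 162 and 275 CPM.

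Hdc, the enzyme that makes histamine, had 54.5 CPM in high and 28.4 CPM in low cells (0.92), while mast cell markers summed to 0.823 CPM in high and 0.211 CPM in low cells. Garnl3, a GTPase-activating domain protein used as a large macrophage marker, had 321 CPM in high and 173 CPM in low cells (0.89). After thinning it was seen in 69.9% of high and 43.2% of low cells, against 1 of the 18 B cell barcodes (5.56%), and before thinning in 88.0% of high and 64.2% of low cells. Pi16 (75.3 CPM in high and 43.0 CPM in low cells), a peptidase inhibitor family member, and the glycoprotein Cd24a (179 and 118 CPM) were also past 1.5-fold. Coro1a, an actin regulator of leukocytes and a member of the actin and adhesion list, had the largest ratio of the 14 at 1.31, but at a low level, with 20.7 CPM in high and 7.74 CPM in low cells. Its UMIs lay in 191 high and 85 low cells. Ccnd1, the G1 cyclin D1, had 354 CPM in high and 258 CPM in low cells, and Rgs1, a brake on G protein signalling, 1683 and 1234 CPM. Id2, Nt5e, Mcemp1, Ssr2 and Vmn2r26 lay between 0.46 and 0.55; Vmn2r26 belongs to a large receptor family with near-identical members, so its assignment is uncertain. Without the cells that had a Lyve1, Folr2 or Mrc1 UMI (described below), Garnl3 stood at 0.66 and Pglyrp1 at 0.73, while Serpinb1a at 0.56, Pi16 at 0.44 and Cd24a at 0.34 no longer passed 1.5-fold; Slpi stood at 0.32, Vmn2r26 at 0.13 and Nt5e at 0.18. With cells ranked by Fabp4 and Fabp5 alone, 2 of the 16 named genes of highest ratio passed 1.5-fold instead of 6. Pglyrp1 then stood at 0.47, Hdc at 0.58, Serpinb1a at 0.43, Pi16 at 0.38 and Cd24a at 0.20, all short of it, while Garnl3 kept 0.67 and Coro1a 1.39.

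Along 5 equal groups of the cells, low to high score, most of these genes changed by degrees. Garnl3 went through 173, 246, 269, 306 and 321 CPM, and Pglyrp1 through 34.4, 47.6, 57.1, 60.5 and 70.3 CPM. The largest step for both was from the lowest group to the next. Slpi was 26215, 31489, 35323, 34663 and 38644 CPM, with no increase from the middle group to the next.

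**Figure D3:**
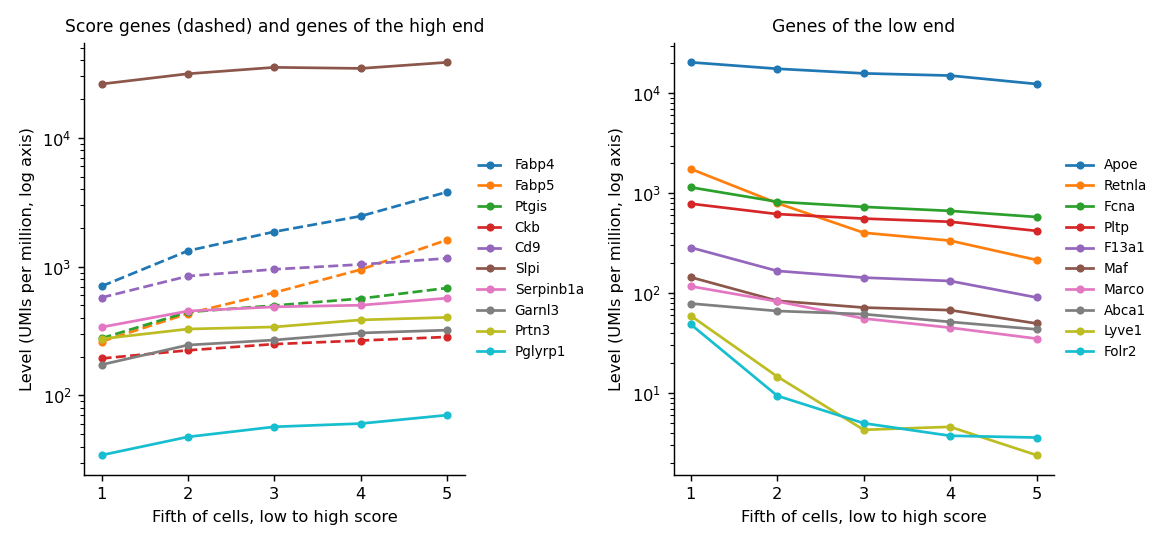
Level in CPM (log axis) in 5 equal groups of the selected wild type cells ordered by score, low to high. Left, the score genes (dashed) and 5 genes higher in high cells; right, 10 genes lower in high cells. Lyve1 and Folr2 have their largest drop from the lowest group to the next. Of the 10 genes, only Lyve1 does not decline at every step.

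Fabp7, the brain-type fatty acid binding protein, was the one other family member at a measurable level, with 243 CPM in high and 176 CPM in low cells, a log2 ratio of 0.46 (0.39 to 0.54). It was not in the score. Fabp3 had 4.94 CPM in high and 5.70 CPM in low cells, Fabp5l2, a close copy of Fabp5, 0 and 0.0704 CPM, and 5 of the 9 other family members had 0 UMIs at both ends. Pparg itself had 0.0748 CPM in high and 0.633 CPM in low cells, too few UMIs to compare.

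Genes of lipid storage, fatty acid oxidation, eicosanoid synthesis and tetraspanins had few or no members past 1.5-fold. Over all genes 0.291% passed it upwards and 4.58% downwards, with a median of -0.12. Counts this small in lists of this size are near those shares, so they do not set these lists apart from other genes. Of 12 measured PPARG target and lipid storage genes, 0 were higher by 1.5-fold and 1 (Abcg1) lower in high cells, with a median of -0.01 that turned to 0.15 under trimmed-mean scaling. The lipid droplet coat protein Plin2 had 383 CPM in high and 367 CPM in low cells, lipoprotein lipase (Lpl) 269 and 251 CPM, and the fatty acid transporter Cd36 187 and 258 CPM. Of 16 fatty acid oxidation genes 0 passed 1.5-fold either way, with a median of 0.09: the thiolase Acaa2 had 81.6 CPM in high and 65.9 CPM in low cells, and Cpt1a, which commits fatty acids to mitochondria, 38.7 and 50.03 CPM. In eicosanoid synthesis, the pathway Ptgis belongs to, 0 of 15 other genes were higher and 1 was lower past 1.5-fold. Alox15 had 2294 CPM in high and 2194 CPM in low cells, Ptgs1 273 and 291 CPM, and Ptgs2 36.1 and 47.8 CPM. The 15 measured tetraspanins and partners, the family of Cd9, had 0 past 1.5-fold; Cd81, the closest relative of Cd9, had 283 CPM in high and 221 CPM in low cells (0.36).

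Cholesterol export and lipoprotein genes were lower in high cells. Among 10 measured genes, 5 passed 1.5-fold downwards, against 4.58% of all genes, 0 upwards, and 9 had a negative ratio, with a median of -0.60 against -0.12 over all genes. Apoe, the main apolipoprotein of macrophages, had 12399 CPM in high and 20377 CPM in low cells, a log2 ratio of -0.72 (-0.73 to -0.71). Its level was lower in each next group of cells, with 20423, 17611, 15831, 15054 and 12399 CPM from low to high score. The phospholipid transfer protein Pltp had 420 CPM in high and 786 CPM in low cells (-0.90). The cholesterol exporters Abca1 (43.5 CPM in high and 78.8 CPM in low cells) and Abcg1 (14.9 and 29.0 CPM) stood at -0.84 and -0.92, and Mylip, which degrades the LDL receptor, at -0.74. These 4 genes with Apoe are known targets of the liver X receptors. Npc2, a lysosomal cholesterol carrier, did not share the direction, with 1000 CPM in high and 988 CPM in low cells. Under trimmed-mean scaling Apoe stood at -0.56 and Mylip at -0.58, just short of 1.5-fold, and Pltp at -0.74, Abca1 at -0.69 and Abcg1 at -0.76. Without the cells with a Lyve1, Folr2 or Mrc1 UMI, Apoe stood at -0.70, Pltp at -0.78, Abca1 at -0.77, Mylip at -0.60 and Abcg1 at -0.99.

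Of 20 measured genes of lipid-associated macrophages, 4 passed 1.5-fold downwards in high cells and 0 upwards, where 4.58% of all genes did so downwards. The list's median was -0.23, against -0.12 over all genes. The lower ones were Apoe, the lipid receptor Trem2 (42.6 CPM in high and 71.8 CPM in low cells), the annexin Anxa5 (37.2 and 93.3 CPM) and the galectin Lgals1 (138 and 216 CPM). The cathepsin Ctsb had 1013 CPM in high and 1406 CPM in low cells, and the adaptor Tyrobp, the signalling partner of Trem2, 4099 and 3460 CPM. Under trimmed-mean scaling Anxa5 stood at -1.15, while Apoe at -0.56, Trem2 at -0.58 and Lgals1 at -0.48 were short of 1.5-fold. The list's median was then -0.05, against 0.05 over all genes. Without the cells with a Lyve1, Folr2 or Mrc1 UMI, Lgals1 stood at -0.39, short of 1.5-fold. Spp1, below the level counted, is given with the knockout cells.

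The genes lowest in high cells included markers of other macrophage states. Lyve1, a hyaluronan receptor of tissue macrophages, had 2.39 CPM in high and 59.5 CPM in low cells, a log2 ratio of -4.15 (-5.19 to -4.13). Its UMIs lay in 16 high and 95 low cells. Retnla, a secreted protein of alternatively activated and recently recruited macrophages, had 215 CPM in high and 1752 CPM in low cells (-3.02). Folr2, a folate receptor, had 3.59 CPM in high and 48.8 CPM in low cells, and the mannose receptor Mrc1 1.197 and 26.3 CPM. These genes mark a minority of cells: 55 high cells (5.71%, 4.33 to 7.36) and 272 low cells (28.2%, 25.4 to 31.2) had a UMI of Lyve1, Folr2 or Mrc1. In thinned cells Lyve1 was seen in 0.659% of high and 6.64% of low cells, Folr2 in 1.43% and 10.7%, and Mrc1 in 0.439% and 8.66%, against 0 of the 18 B cell barcodes. Without thinning the shares were 1.66% of high and 9.85% of low cells for Lyve1, 3.32% and 17.1% for Folr2, and 1.35% and 16.8% for Mrc1.

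Further genes were lower in high cells to a smaller extent. The scavenger receptor Marco had 35.1 CPM in high and 117 CPM in low cells (-1.71), coagulation factor F13a1 90.6 and 286 CPM (-1.65), the transcription factor Maf 49.7 and 144 CPM (-1.52), and the lectin Fcna 579 and 1146 CPM (-0.98). The low cells with a Lyve1, Folr2 or Mrc1 UMI held 31.9% of all low-cell UMIs but 65.5% of those of Retnla, 51.3% of Marco, 49.3% of Maf, 47.9% of Fcna and 47.4% of F13a1. Apoe was not concentrated in them, at 31.9%. With such cells removed before ranking, the ratios were -2.03 for Retnla, -1.21 for Marco, -1.23 for F13a1, -1.07 for Maf and -0.58 for Fcna, the last just short of 1.5-fold. Part of the difference was therefore also present among cells in which no UMI of these markers was captured. A cell without such a UMI can still make these transcripts. The share of low cells with a Mrc1 UMI, for example, was 16.8% before and 8.66% after thinning. Whether the difference extends to cells that lack these markers was not tested. The median of 8 small and recruited macrophage genes, which include Lyve1, Folr2 and Mrc1 themselves, was -2.33 with all cells. Mtss1 and Frmd4b, a membrane-bending and a scaffold protein, stood at -1.05 and -1.02, and the microRNA gene Mir6236 at -1.52.

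Cell cycle transcripts were lower in high cells. Of 8 measured genes of G2 and mitosis, 6 passed 1.5-fold downwards in high cells and 0 upwards, against 4.58% of all genes downwards, with a median of -1.67. The proliferation marker Mki67 had 8.68 CPM in high and 46.4 CPM in low cells, and topoisomerase Top2a 5.46 and 41.1 CPM. With cells ranked by Fabp4 and Fabp5 alone the difference was smaller: Mki67 stood at -1.18 instead of -2.29, Top2a at -1.46 instead of -2.70, and the median of the list at -0.44. The microtubule regulator Stmn1 had 29.3 CPM in high and 104 CPM in low cells, and the replication-dependent histone Hist1h2ap 30.00 and 80.8 CPM, one of many near-identical histone genes, so its assignment is uncertain. Cells with a UMI of Mki67, Top2a, Ccnb1, Cdk1 or Birc5 were 15.6% of high cells and 21.5% of low cells. The 10 low cells with the most UMIs held 45.7% of the low-end Stmn1 UMIs, and the 10 such high cells 45.2% of the high-end ones. Once cells with a UMI of those 5 genes were left out, Stmn1 stood at 0.87 and Hist1h2ap at 0.55; the list itself cannot be read there, since its members chose the cells. Of S phase genes, 4 were measured and 0 passed 1.5-fold, with a median of -0.34.

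Some immune lists differed in single members, and NF-kB feedback genes were lower as a list with 1 member past 1.5-fold. Of 18 measured cytokines and chemokines, 4 passed 1.5-fold downwards in high cells, where 4.58% of all genes did, and 0 upwards: Ccl6 (1010 CPM in high and 1817 CPM in low cells), Ccl9 (284 and 488 CPM), Ccl4 (12.8 and 32.5 CPM) and the anti-inflammatory cytokine Il10 (17.7 and 32.02 CPM). Without the cells with a Lyve1, Folr2 or Mrc1 UMI, Ccl6 stood at -0.45 and Ccl9 at -0.51, both short of 1.5-fold. The neutrophil chemokine Cxcl2 had 8741 CPM in high and 8327 CPM in low cells. Of 6 Fc receptor genes 2 passed 1.5-fold downwards, where 4.58% of all genes did, and 0 upwards. The neonatal receptor Fcgrt had 86.7 CPM in high and 146 CPM in low cells, and the inhibitory receptor Fcgr2b 141 and 214 CPM. Fcgr2b stood at -0.43 under trimmed-mean scaling and without the cells with a Lyve1, Folr2 or Mrc1 UMI, short of 1.5-fold. Fcgrt stood at -0.56 without those cells, also short of it, and at -0.59 under trimmed-mean scaling. The activating receptor Fcgr1 had 35.9 and 25.5 CPM. Of 14 measured NF-kB feedback genes 1 (Nfkbid) passed 1.5-fold downwards, where 4.58% of all genes did. It stood at -0.44 under trimmed-mean scaling, short of 1.5-fold. Of the 14 genes 12 were negative and 2 positive, with a median of -0.36. Over all genes 35.7% lay above 0, with a median of -0.12. The median of the NF-kB list was -0.21 under trimmed-mean scaling, against 0.05 over all genes. The inhibitor Tnfaip3 had 115 CPM in high and 154 CPM in low cells. Of 22 immediate early genes 0 passed 1.5-fold, with a median of -0.21, and of 32 lysosomal genes 0, with a median of -0.17 that came to -0.01 under trimmed-mean scaling.

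Small shifts ran through whole classes of abundant transcripts. Of 76 measured nuclear-encoded respiratory chain genes, 67 lay above 0 with a median of 0.17. Of 81 cytosolic ribosomal protein genes 66 lay above 0 with a median of 0.11, and 0 of either passed 1.5-fold. Over all genes 35.7% lay above 0, with a median of -0.12. The shortest of 5 equal groups of all genes by length (described below) had a median of 0.11, like that of the ribosomal protein genes. Ribosomal protein genes made up a median of 21.4% of the UMIs of high cells and 19.7% of low cells. With cells ranked within 5 bins of that share, the ribosomal median was -0.01 and the respiratory chain median 0.15. Of 21 redox genes 0 passed 1.5-fold, and 10 lay above and 11 below 0. At the ends of that list, the peroxiredoxin Prdx4 had 265 CPM in high and 198 CPM in low cells, while Keap1, which holds back the antioxidant factor NRF2, stood at -0.50.

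The ratio also moved with transcript length and with nuclear RNA. In 5 equal groups of genes from the shortest to the longest exonic length, the median ratio was 0.11, -0.01, -0.13, -0.24 and -0.35, and 103 of the 220 lower genes were in the longest group. The nuclear RNA Malat1 had a median of 33.2 UMIs per 10000 in high and 46.8 in low cells, and Neat1 70.8 CPM in high and 128 CPM in low cells. High cells also had fewer genes per cell (2844.5 in high and 3171 in low cells) and a mitochondrial share of 0.624% against 0.720% in low cells. The part of these measures in the differences above was not tested.

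**Figure D4:**
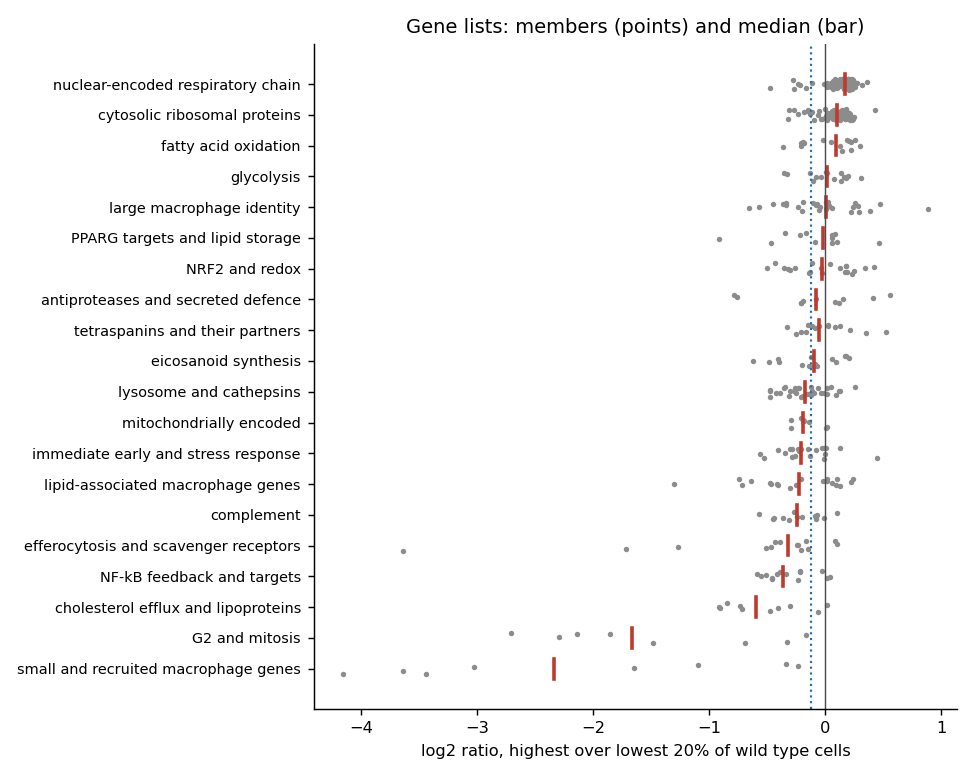
Log2 ratio of high over low wild type cells (x axis) for the measured members (grey points) of 20 gene lists (y axis); red bars are list medians, the blue dotted line is the median of all 4803 genes (-0.12). Cholesterol efflux (-0.60), G2 and mitosis (-1.67) and small and recruited macrophage genes (-2.33) stand furthest left, and the respiratory chain (0.17) lies just right of 0.

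The knockout library, which the choice of cells did not use, gave 1104 high and 1104 low cells of 5523 selected by the same rule. Its 5273 measured genes included 27 (0.512%) that were higher and 463 (8.78%) that were lower in high cells by 1.5-fold or more. All 14 genes higher in wild type high cells lay above 0 in the knockout library, where 37.5% of all genes did, and 215 of the 220 lower ones lay below 0, where 62.5% of all genes did. Past 1.5-fold in both libraries were 3 higher genes, 11.1% of the knockout and 21.4% of the wild type genes, and 117 lower genes, 25.3% of the knockout and 53.2% of the wild type genes. With the wild type limits applied to knockout cells, 5 higher genes passed in both.

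With each score gene left out of the ranking in turn, Fabp5 stood at 1.32 in knockout and 1.39 in wild type cells, Fabp4 at 0.80 and 1.10, Ptgis at 0.40 and 0.59, Ckb at 0.30 and 0.26, and Cd9 at 0.14 and 0.43. The 3 higher genes of both libraries were Serpinb1a, Hdc and Pi16. Serpinb1a stood at 0.77 in knockout cells, with 564 CPM in high and 330 CPM in low cells, beside 0.75 in wild type cells. Hdc stood at 0.76 and Pi16 at 0.66. Slpi was 0.37, with 35097 CPM in high and 27163 CPM in low knockout cells, and Fabp7 0.45, next to 0.46 in wild type cells. Other genes had smaller ratios in knockout cells: Garnl3 was 0.48, short of 1.5-fold, Coro1a 0.16, Pglyrp1 0.31, Cd24a 0.07, Rgs1 -0.05, Vmn2r26 -0.05 and Id2 -0.11. Ccnd1 was larger there, at 0.85, with 628 CPM in high and 349 CPM in low cells. The differences between the libraries were not tested.

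All 12 named genes lowest in wild type high cells were below 0 in knockout cells, and 11 were past 1.5-fold. Retnla was -2.73, with 47.97 CPM in high and 323 CPM in low knockout cells, Lyve1 -2.54, Marco -1.93, Maf -1.04 and Fcna -0.91. Few cells carried some of these UMIs. The 10 low knockout cells with the most UMIs of each gene held 58.0% of those of Retnla, 87.8% of Lyve1 and 29.1% of Marco. Lyve1 had 11.4 CPM in low knockout cells, under the level counted, from 197 UMIs in 25 cells. The median of the cholesterol efflux list was -0.59, with Apoe at -0.96, Abca1 at -1.25 and Abcg1 at -1.21. The lipid-associated list had a median of 0.02 in knockout cells, against -0.23 in wild type cells, with Trem2 at -0.08 and Lgals1 at 0.14. Of 10 measured cytokines and chemokines 1 passed 1.5-fold upwards and 0 downwards in knockout cells, with a median of 0.07 against -0.20 in wild type cells, and Ccl6 stood at -0.22. Respiratory chain genes had a median of 0.28. The length gradient appeared again, with medians from 0.14 in the shortest to -0.40 in the longest group of genes. Spp1, the secreted phosphoprotein osteopontin, named after its values were seen, had 764 CPM in high and 332 CPM in low knockout cells, where 607 of the high cells had a UMI. In wild type cells it had 17.1 CPM in high and 2.18 CPM in low cells, with 76.4% of the high-end UMIs in 1 cell.

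**Figure D5:**
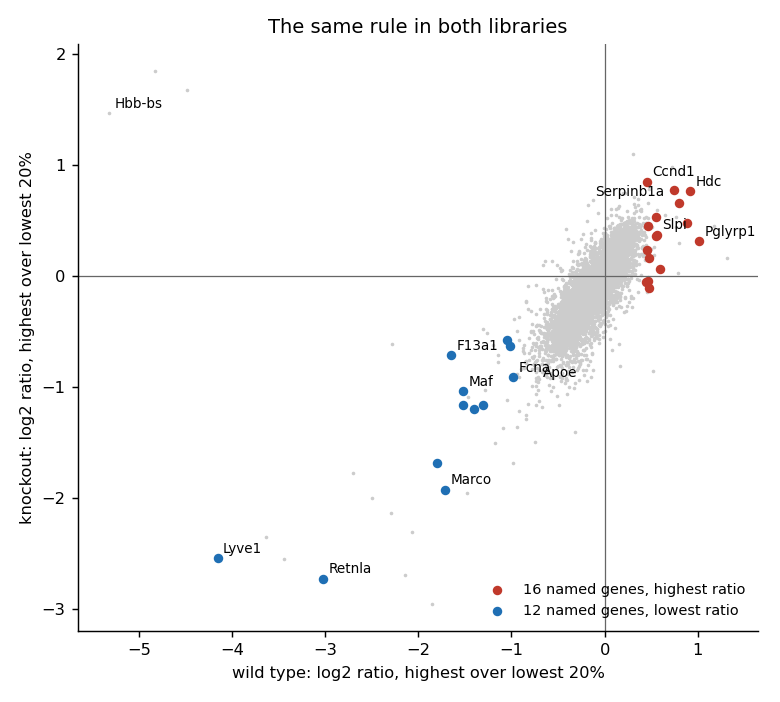
Log2 ratio of the highest over the lowest 20% of cells in the knockout library (y axis) against the wild type library (x axis), for each gene measured in wild type cells (grey). Red points are the 16 named genes of highest wild type ratio, blue points the 12 of lowest ratio; all 12 blue points and 13 of the red ones keep their sign. The 3 points at the upper left are haemoglobin genes.

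Between the genotypes, the score genes of the selected cells differed in level. Fabp4 had 1827 CPM (1819 to 1836) in knockout and 2002 CPM (1992 to 2012) in wild type cells, Fabp5 538 and 760 CPM, Ptgis 538 and 492 CPM, Ckb 280 and 243 CPM, and Cd9 1389 and 913 CPM. Slpi had 33101 CPM in knockout and 33223 CPM in wild type cells. Of 5523 selected knockout cells, 1045 (18.9%, 17.9 to 19.98) reached the lowest score of the wild type high cells. Cd9 gave 23.9% of the score UMIs in knockout high cells and 15.4% in wild type high cells, and Fabp5 15.7% and 21.4%, while Fabp4 gave the most in both, at 46.5% and 50.4%. Wild type cells left out for class II at 5 or more per 10000 (1364 cells) had 1544 CPM of Fabp4 and 817 CPM of Fabp5, and the 74 barcodes with under 5 Prg4 UMIs 162 and 93.0 CPM.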

How the data were processed

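The deposited files hold UMI counts by gene and barcode. Per the file headers they came from Cell Ranger 6.1.2. Seurat 4.1.0 and bcl2fastq are also named in the submitters' processing notes, with no role given. The notes name mm9, but all 55450 feature identifiers are in GENCODE M21 (GRCm38), from which positions and exonic lengths were taken. Of the features, 109 repeat a symbol. The members and gene lists were chosen with earlier results of these data known, and the list of other fatty acid binding proteins was added after values were seen.

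Cells were scored by UMIs of the 5 genes per 10000. UMIs were summed over the cells of each end and scaled to CPM of all UMIs; ratios add 1 CPM. The counts of genes past 1.5-fold cover those reaching 20 CPM in either end, without the 5 score genes. Named genes were those at 50 CPM or more with the 16 highest and 12 lowest ratios, leaving out haemoglobin, immunoglobulin, ribosomal protein, mitochondrial and sex-linked genes and models without a gene name, plus Slpi, the score genes and up to 4 members of each list; Spp1 and other list members with smaller ratios were named after their values were seen. With 1 library per genotype there are no replicates, and no p-values were computed. Counting intervals of ratios and levels are exact and cover counting error only, and intervals of shares of cells are exact binomial intervals over cells.

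Scrublet's automatic threshold called 1 barcode in the wild type library (0.0160%), so it did not work; doublets were kept, and removal of the 313 top-scored barcodes (5.00%) was an alternative. B cell barcodes had at least 5 UMIs of the B cell markers. Thinning used 5000 UMIs and seed 0. The ratios, fold calls and counting intervals were checked on simulated counts with planted folds. Trimmed-mean factors came from edgeR 4.0.16 in R 4.3.3; the rest used scanpy 1.11.5, pandas 2.3.3, scipy 1.17.1 and numpy 2.4.6 in Python 3.11.15. Reads were not used here.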

Additional observations from a re-analysis of the deposited data

Results flagged for a closer look

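The haemoglobin gene Hbb-bs was past 1.5-fold in opposite directions in the 2 libraries, at 1.47 in knockout cells and -5.32 in wild type cells (log2 high over low). The difference was not tested. In the knockout library high cells had 890 UMIs and low cells 290, and in the wild type library high cells had 25 and low cells 1612. A single cell held 697 of the 890 UMIs of the knockout high cells, and another held 1450 of the 1612 UMIs of the wild type low cells.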

How the results depend on the processing

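Main counts were 14 genes at least 1.5-fold higher and 220 lower in high cells. Trimmed-mean scaling gave 47 and 83, and median-of-ratios scaling 58 and 74. The top and bottom 10% gave 42 and 660, and 40% gave 2 and 44. A score without Cd9 gave 9 and 126, and Fabp4 with Fabp5 alone 7 and 105. Averaging over cells gave 555 lower, a thinned score 144, and a pseudocount of 5 CPM 143. With no minimum level there were 85 and 1031, at 100 CPM 3 and 36, and past 2-fold 3 and 34. Chosen after seeing the data were leaving out cells with Lyve1, Folr2 or Mrc1 (125 lower) and ranking within ribosomal bins (104 lower). Under wild type limits, 5 genes instead of 3 were higher in both libraries. Without cells with cycle genes, Stmn1 turned to 0.87, Hist1h2ap to 0.55 and the G2 and mitosis median to 0.17; without Lyve1, Folr2 or Mrc1 cells the median of the small or recruited marker list (-3.23) came to 0.070. Both medians follow from the construction, since members of the lists chose the cells removed and the members left differ. The causes of the other moves were not tested. List medians under other settings are over the members measured there. The 16 highest genes kept their sign under all 19 alternatives, but with Fabp4 and Fabp5 alone 2 instead of 6 passed 1.5-fold. No paired analysis was possible because each genotype had 1 library.

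Limits: 1 wild type library gives no replicate error, the ends are set by rank, and every gene of the ranked cells shares depth with the score. Genes under 20 CPM were not compared unless named.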
